A study of Mus musculus with 75 samples.

Results

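Nucleic acid sensors are the proteins by which a cell notices foreign or misplaced RNA and DNA. The 10 genes followed here were chosen by name: Ddx58, Ifih1, Dhx58, Tlr3, Tlr7, Tlr9, Zbp1, Mavs, Trim25 and Aim2. All 10 were found in each of the 2 deposited tables, among 20687 genes of the tissue table and 16959 of the parabiosis table, and the transcript with the highest mean stands for each gene. RNA was sequenced from 11 tissues, taken from 3 aged and 3 young animals, and from the choroid plexus of parabionts, mice joined surgically so that they share a circulation. All were C57BL/6. Aged mice and old parabionts were 22 months old, young ones 3 months. Tissue mice were untreated. Isochronic parabionts had a partner of their own age and heterochronic parabionts a partner of the other age. All animals were perfused with PBS. The data hold 74 of the 75 listed samples, with 63 tissue libraries and 11 of parabionts. A tissue was represented by 1 library per mouse, but cervical lymph nodes and bone marrow had only 2 young and liver only 2 aged ones. Parabionts numbered 3 in each group, except 2 old heterochronic mice. The labels do not say which parabionts were partners of each other.

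As background, the RIG-I-like receptors are helicases of the cytosol. RIG-I, the product of Ddx58, binds short RNA with a triphosphate end, MDA5 (Ifih1) binds long double-stranded RNA, and LGP2 (Dhx58) binds RNA but has no signalling domain of its own and tunes the other pair. Both signalling helicases act through MAVS, a protein of the outer mitochondrial membrane, and TRIM25 is a ubiquitin ligase that helps to activate RIG-I. Toll-like receptors 3, 7 and 9 read RNA and DNA inside endosomes, ZBP1 binds nucleic acid in the Z form and can start cell death, and AIM2 builds an inflammasome on DNA in the cytosol. Many of these genes are themselves induced by type I interferon, so that a sensor's level can follow an interferon response as well as precede one.

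Values are the authors' normalised signal per transcript, with 1 read worth 0.527 to 2.19 in tissue libraries and 0.783 to 1.48 in parabionts. Depth ran from 187857 to 1134844 reads in tissues, from 534333 to 715221 in the choroid plexus libraries among them, and from 534788 to 992225 in parabionts. Most sensors therefore rest on few reads per library, which limits the precision of every value given here. Levels are not compared between genes or between the 2 tables, which were normalised separately. Per the labels, choroid plexus RNA of both experiments was purified with a different kit from that of all other tissues, so a level difference between choroid plexus and another tissue cannot be told apart from the kit. In bulk tissue, fewer cells of a type and less RNA per cell cannot be told apart. Choroid plexus libraries carried the markers of their epithelium: Folr1, a folate receptor gene, stood between 1267 and 1541 in untreated mice and between 318.5 and 444.4 in parabionts. Ttr, the transthyretin gene, stood between 207902 and 269574 in untreated mice but only between 777.4 and 1254 in parabionts; the reason for this gap between the tables was not tested.

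Libraries of young mouse 2 stood apart in several tissues, carrying the markers of another organ. In its hippocampus the summed level of 8 B cell markers was 940.1, against 1.82 to 5.76 in the other libraries. In its spleen, lung epithelium markers summed to 34756 against 28.5 to 80.3, and in its lung, hepatocyte markers summed to 50248 against 133.2 to 296.4. Its choroid plexus stood among the others, at 244452 for epithelial markers against 212269 to 274195. That sum is mostly Ttr and does not show whether markers of another organ were present. In the young choroid plexus libraries, its own among them, B cell markers summed to 3.76 to 8.97, against 2.44 to 6.15 in aged ones. Neuron markers summed to 3.99 to 13.81 against 5.12 to 21.26, and lung epithelium markers to 50.19 to 62.13 against 69.13 to 96.23. The inguinal lymph nodes of aged mouse 3 held 5466 of fat cell markers, against 13.3 to 326.3 in the rest. Among the sensors, the hippocampus of young mouse 2 was the highest of 6 libraries for 9 of 10 genes. Counts over tissues and the fitted changes named in single tissues are therefore given with and without this mouse.

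Promoters are shown for the helicase genes whose promoter held an interferon-stimulated response element, a sequence bound by transcription factors that interferon activates, and for Trim25, the sensor gene that passed the test in a comparison. Each runs from 250 bases before to 50 bases after the gene's start, from RefSeq on build GRCm38.p6, 5′ to 3′ on the gene's strand, with the element in capitals. The positions are chr2:62646206-62646505 for Ifih1 (minus strand), chr4:40239776-40240075 for Ddx58 (minus strand) and chr11:88999153-88999452 for Trim25 (plus strand). RefSeq promoters were matched for 7 of the 10 genes; those of Dhx58, Tlr7 and Zbp1 were not searched.
Ifih1: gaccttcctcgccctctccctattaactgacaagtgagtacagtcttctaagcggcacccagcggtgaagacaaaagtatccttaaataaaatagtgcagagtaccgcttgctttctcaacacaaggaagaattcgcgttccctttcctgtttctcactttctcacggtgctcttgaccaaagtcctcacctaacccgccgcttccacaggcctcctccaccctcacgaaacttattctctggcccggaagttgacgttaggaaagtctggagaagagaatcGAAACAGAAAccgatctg
Ddx58: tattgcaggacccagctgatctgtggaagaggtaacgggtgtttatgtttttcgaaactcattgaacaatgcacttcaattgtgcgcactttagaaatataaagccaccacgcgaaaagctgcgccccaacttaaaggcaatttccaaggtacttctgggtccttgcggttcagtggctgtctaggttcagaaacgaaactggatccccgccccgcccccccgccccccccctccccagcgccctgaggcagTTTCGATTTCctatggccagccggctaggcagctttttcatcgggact
Trim25: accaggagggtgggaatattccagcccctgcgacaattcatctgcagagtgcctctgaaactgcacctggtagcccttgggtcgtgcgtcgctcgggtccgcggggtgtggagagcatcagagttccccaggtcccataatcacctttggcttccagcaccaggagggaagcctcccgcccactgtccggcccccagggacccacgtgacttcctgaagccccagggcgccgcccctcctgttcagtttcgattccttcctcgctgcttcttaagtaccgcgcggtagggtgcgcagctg

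The element was searched on both strands as GAAA, any 2 bases and GAAA again. In Ifih1 it lay on the gene's own strand, 33 to 42 bases after the start. In Ddx58 it lay on the opposite strand, 3 to 12 bases after the start, so it is printed as its reverse complement. The element was in 2 of the 7 matched sensor promoters and in 3.44% of all 32851 promoters of this length. TTCNNNGAA, the gamma-activated site, was in 0 of the 7 and in 8.3% of all promoters. A match describes these letters only and does not show binding.

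The first question is which sensors the choroid plexus expressed and how they differed with age. This organ makes the cerebrospinal fluid. Trim25 was higher in every aged than in every young library (fitted fold 2.22), and Tlr3 was lower in every aged library. Ddx58 was higher in part of the aged libraries, and the ages overlapped for Ifih1, Dhx58 and Mavs. No sensor passed the test over all genes. Tlr7, Tlr9, Zbp1 and Aim2 were at or near 0 at both ages and were not tested, because their mean was under 2 reads. With limma, 0 of the 6 tested sensors had an adjusted p under 0.05, where 0.295% of the 11193 genes tested did. At an unadjusted p under 0.05 there was 1 of 6, against 6.24% of all genes, and limma with voom weights also gave 0 called and 1 under 0.05. The 6 changes had a median of 0.18 log2 units, against -0.01 for all genes.

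**Figure D1:**
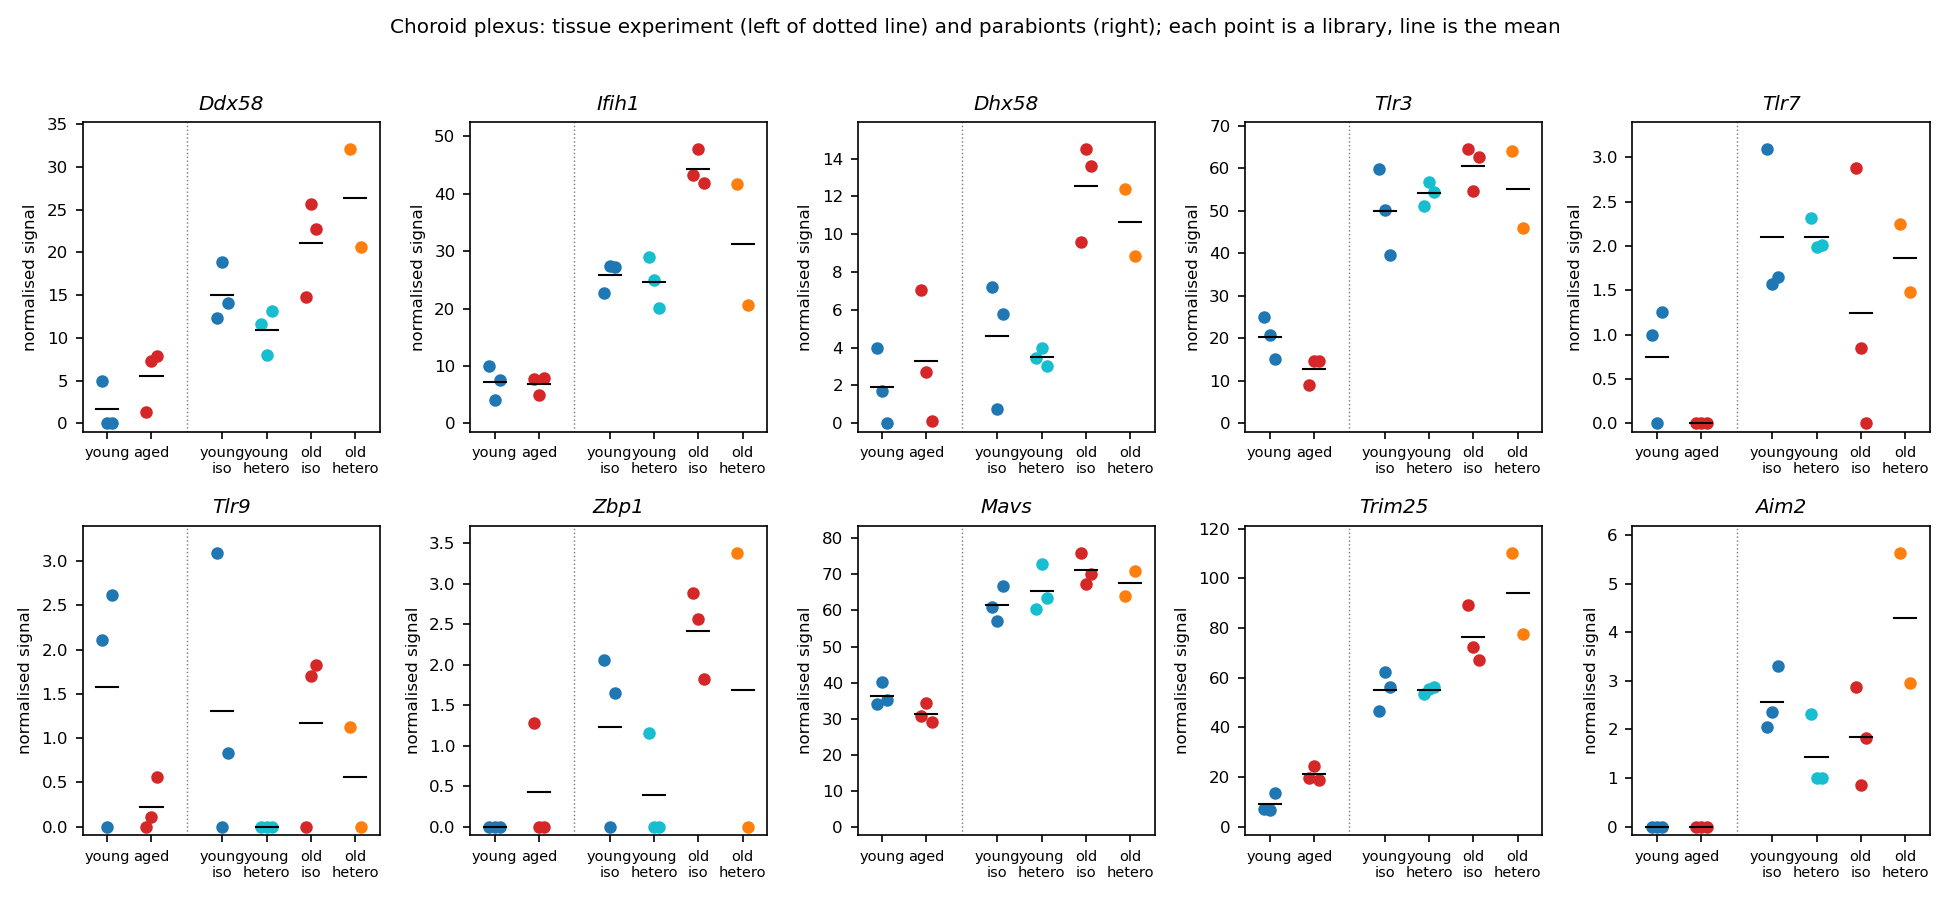
Normalised signal (y axis) of each sensor in choroid plexus, with 1 point per library and a line at the group mean; untreated young and aged mice are left of the dotted line and the 4 parabiosis groups right of it, from a separately normalised table. Trim25 is higher in every aged library than in every young one, and every old parabiont lies above every young one; Aim2 is at 0 in all 6 libraries of untreated mice.

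The same 10 genes were then read in the parabionts, where age was compared in 2 separate sets of mice. Between isochronic mice, Ifih1, Dhx58, Trim25 and Mavs were higher in every old than in every young library, and between heterochronic mice Ddx58, Dhx58, Trim25 and Aim2 were. Trim25 rose with age among heterochronic parabionts and was the only sensor to pass the test in any comparison. Tlr7, Tlr9 and Zbp1 were again too low to test. In the isochronic comparison 0 of 7 tested sensors were called by limma, against 0.186% of all 13473 genes; 3 had an unadjusted p under 0.05, all higher in old mice (2.55% of all genes), and voom gave 0 and 4. Of the 7, 4 did not overlap and were higher in old mice, where 5.74% of all genes did so. In the heterochronic comparison 1 of 7 was called, against 0.141% of all genes, and 4 of 7 were higher without overlap, against 10.9%. All 7 fitted changes were above 0 there, with a median of 0.74 log2 units, and 6 of 7 among isochronic mice, with a median of 0.44; among all genes 50% and 50.6% were above 0. The 4 groups were fitted together and share 1 estimate of the spread.

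**Figure D2:**
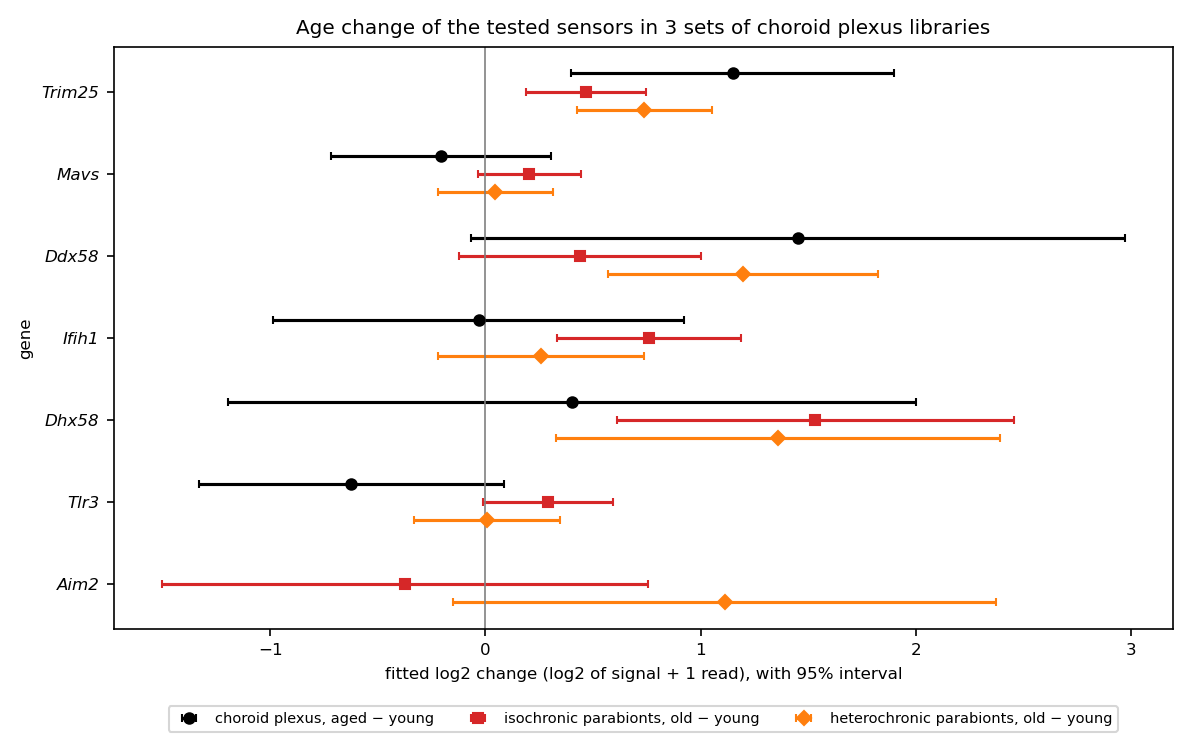
Fitted log2 change with its 95% interval (x axis) for each tested sensor (y axis) in 3 sets of choroid plexus libraries: untreated mice, isochronic parabionts and heterochronic parabionts, each old against young. The interval for Trim25 lies above 0 in all 3 sets, while those of Mavs and Tlr3 include 0 in all 3.

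Among the RIG-I-like receptors, Ddx58 (NM_172689) had a signal of 1.28, 7.33 and 7.83 in the choroid plexus of aged mice 1, 2 and 3, and of 4.99, 0 and 0 in young mice 1, 2 and 3. Aged mice 2 and 3 stood above all young ones and aged mouse 1 between them, so the groups overlapped. The fitted log2 change was 1.45 (SE 0.75, adjusted p = 0.813, limma), on a signal of a few reads. In parabionts Ddx58 was 12.4, 18.8 and 14.0 in young isochronic, 11.6, 7.98 and 13.1 in young heterochronic, 14.7, 25.7 and 22.7 in old isochronic, and 32.1 and 20.7 in old heterochronic mice. The young heterochronic mice were the lowest group and the old heterochronic mice the highest, with no overlap between them. The change between them was 1.20 (SE 0.31, adjusted p = 0.130), and between isochronic mice 0.44 (SE 0.27, adjusted p = 1.00).

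Ifih1 (NM_001164477) was at 7.68, 4.89 and 7.83 in aged and 9.98, 4.14 and 7.53 in young choroid plexus. The groups interleaved, and the change was -0.03 (SE 0.47, adjusted p = 0.998, limma), with a 95% interval from -0.99 to 0.92. In parabionts it was 22.7, 27.4 and 27.2 in young isochronic and 43.3, 47.7 and 41.8 in old isochronic mice. The old isochronic libraries formed a tight group above all young ones, with a change of 0.76 (SE 0.21, adjusted p = 0.25). Ifih1 was 29.0, 24.9 and 20.1 in young heterochronic mice, and the 2 old heterochronic mice differed between themselves, at 41.6 and 20.7. The lower of these lay within the young range. The difference of old heterochronic from old isochronic mice was -0.57 (SE 0.23, adjusted p = 0.506), which was carried mainly by mouse 34: without it the difference was -0.08. Old isochronic mice serve as control here and as the old group above, so the 2 results are not independent.

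Dhx58 (NM_030150) was at 7.04, 2.69 and 0.12 in aged and 3.99, 1.73 and 0 in young choroid plexus, which overlapped fully (log2 0.40, SE 0.79, adjusted p = 0.975, limma). In isochronic parabionts it was 7.22, 0.78 and 5.78 in young and 9.61, 14.5 and 13.6 in old mice. In heterochronic parabionts it was 3.48, 3.99 and 3.02 in young and 12.4 and 8.87 in old mice. All 5 old parabionts thus lay above all 6 young ones. The changes were 1.53 (SE 0.45, adjusted p = 0.344) in isochronic and 1.36 (SE 0.50, adjusted p = 0.453) in heterochronic mice. Without young isochronic mouse 3, whose Dhx58 was 1 read, the isochronic change was 0.84.

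Mavs (NM_144888), the adaptor below the signalling helicases, was at 30.7, 34.2 and 29.1 in aged and 33.9, 40.04 and 35.1 in young choroid plexus. Only aged mouse 2 reached the young range, and the change was -0.21 (SE 0.25, adjusted p = 0.961, limma), with a 95% interval from -0.72 to 0.31. In parabionts all 11 libraries lay between 57.1 and 76.0. The old isochronic mice, at 76.0, 67.3 and 70.0, stood just above the young ones, at 60.9, 57.1 and 66.8, with a change of 0.20 (SE 0.12, adjusted p = 1.00). Between heterochronic mice the change was 0.05, with an interval from -0.22 to 0.31.

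Trim25 (NM_009546), the ubiquitin ligase, was at 19.8, 24.4 and 19.0 in aged and 6.99, 6.90 and 13.8 in young choroid plexus. Every aged library exceeded every young one, and the means were 21.1 ± 2.92 and 9.23 ± 3.96 (SD, n = 3 in each group). The change of 1.15 (SE 0.37, unadjusted p = 0.00367, adjusted p = 0.392, limma) did not pass the test over all genes. Without young mouse 2 the change was 1.00 (unadjusted p = 0.0154, adjusted p = 0.783). Trim25 was 1 of 6 tested sensors whose aged libraries all exceeded the young, where 5.4% of all genes did so. Leaving out that mouse gave changes of 1.07 for Ddx58, 0.48 for Dhx58, -0.33 for Ifih1, -0.14 for Mavs and -0.60 for Tlr3.

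Parabionts gave Trim25 values of 46.5, 62.2 and 56.1 in young isochronic and 89.4, 72.5 and 67.2 in old isochronic mice. Young heterochronic mice had 53.3, 55.6 and 56.4, and old heterochronic mice 110.3 and 77.7. All 5 old parabionts lay above all 6 young ones, whatever the partner's age. Between heterochronic mice Trim25 rose by 0.74 (SE 0.15, adjusted p = 0.0379, limma), from 55.1 ± 1.58 (SD, n = 3) to 94.0 ± 23.0 (SD, n = 2). The call did not hold in 5 of 9 other settings nor without 6 of the 11 libraries, with an adjusted p of up to 0.328; without old heterochronic mouse 29 the change was 0.49 (adjusted p = 0.264). Between isochronic mice the change was 0.47 (SE 0.14, adjusted p = 0.32). The macrophage and microglia markers stood higher in the old heterochronic mice too: their sum was 302.7 and 388.2 in old against 198.0 to 297.5 in young mice, with 9 of 10 tested markers above 0 and 0 called. Between isochronic mice, with sums of 308.4 to 334.4 and 292.0 to 386.9, 5 of 10 were above 0. In untreated mice the sum was 357.2, 88.0 and 126.44 in aged mice 1, 2 and 3 against 94.5 to 112.9 in young mice. There 8 of 8 tested markers were above 0 and 0 were called. Of 17 marker lists, those of neutrophils and fat cells also stood apart and higher between heterochronic mice, the former at 101.5 and 102.3 against 77.2 to 87.1 and the latter at no more than 3.45 in any library. In old isochronic mice the neutrophil list stood apart and higher than in young ones. Those of endothelium, fibroblasts and erythroid cells stood apart and lower there. The part of these cells in the sensors' differences between parabionts was not tested.

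The endosomal receptors divided into a gene the choroid plexus expressed and a pair it barely did. Tlr3 (NM_126166), the receptor for double-stranded RNA, was at 8.96, 14.7 and 14.5 in aged and 24.96, 20.7 and 15.1 in young choroid plexus. All aged libraries lay below all young ones, where 6.02% of all genes did so, and the change was -0.62 (SE 0.35, adjusted p = 0.818, limma). In parabionts the values were 59.8, 50.1 and 39.6 in young isochronic, 51.0, 56.9 and 54.4 in young heterochronic, 64.4, 54.5 and 62.7 in old isochronic, and 64.1 and 45.8 in old heterochronic mice. These groups overlapped, with changes of 0.29 between isochronic and 0.01 between heterochronic mice.

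Tlr7 (NM_133211), a receptor for single-stranded RNA, was listed at 0 in all 3 aged choroid plexus libraries and at 1.00, 0 and 1.25 in young ones. Tlr9 (NM_031178), the receptor for unmethylated CpG DNA, was at 0, 0.11 and 0.56 in aged and 2.11, 0 and 2.61 in young ones. In parabionts Tlr7 ran from 0 to 3.09 and Tlr9 from 0 to 3.09. These are 0 to 3 reads a library and allow no direction to be read.

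Of the remaining sensors, Zbp1 (NM_021394) had a signal of 1.28 in the choroid plexus of aged mouse 1 and was listed at 0 in the other 5 libraries. In parabionts it ran from 0 to 3.38. Aim2 (NM_001013779) was listed at 0 in all 6 libraries of untreated mice. In parabionts it was 2.06, 2.35 and 3.30 in young isochronic, 2.32, 1.00 and 1.01 in young heterochronic, 2.88, 0.85 and 1.82 in old isochronic, and 5.63 and 2.96 in old heterochronic mice. Both old heterochronic libraries exceeded all young heterochronic ones, but the change of 1.11 (SE 0.62, adjusted p = 0.635, limma) rests on a handful of reads, and between isochronic mice the change was -0.37.

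Between mice with a partner of their own and of the other age, no sensor passed the test. Young heterochronic differed from young isochronic mice in 0 of 7 sensors by limma, where 0% of all genes were called; at an unadjusted p under 0.05 there were also 0, against 6.44% of all genes, and voom gave 0 and 0. Trim25 differed by 0.01, with a 95% interval from -0.27 to 0.29, and Ddx58 by -0.44, with an interval from -1.004 to 0.12. Old heterochronic differed from old isochronic mice in 0 of 7 sensors as well, against 0% of all genes; 1 had an unadjusted p under 0.05 (8.85% of all genes), the lower Ifih1 described above, and voom gave 0 called and 2 under 0.05. For Trim25 the difference was 0.28, with an interval from -0.03 to 0.60. Such intervals leave room for moderate differences, so a shared level was not shown. Some marker lists also stood apart by the partner's age. Those of neutrophils, choroid plexus epithelium and hepatocytes were higher in old heterochronic than in old isochronic mice. In young heterochronic mice the neutrophil list was higher, and those of endothelium and erythroid cells lower, than in young isochronic mice. Their part in the sensors' values was not tested.

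Other genes of the pathway were read from 7 lists holding 66 genes. In aged choroid plexus 43 could be tested, 23 had a change above 0, and 1 rose, against 49.1% above 0 and 0.295% called over all genes. It was Irf7, the transcription factor that amplifies interferon production downstream of these sensors. It stood between 11.0 and 25.6 in aged and between 1.38 and 2.51 in young mice (log2 2.34, SE 0.50, adjusted p = 0.0147, limma). Eif2ak2, the RNA-activated kinase PKR, had a change of 0.94 (adjusted p = 0.688), which did not pass. Of the adaptors and kinases 12 of 15 were tested and 5 were above 0, with Tank, which links the adaptors to the kinase TBK1, at -1.01 (adjusted p = 0.757). The inhibitors gave 0 of 3 above 0. None of the 7 interferon genes reached the level needed for a test in choroid plexus, of untreated mice or of parabionts.

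In parabionts 51 of the 66 genes were tested. Usp18, which removes ISG15 from proteins and damps interferon receptor signalling, rose with age in both sets: from between 9.39 and 14.0 to between 49.1 and 58.7 among isochronic mice (log2 2.07, SE 0.25, adjusted p = 4.86e-05, limma), and from between 8.11 and 13.1 to 32.5 and 66.4 among heterochronic mice (1.97, SE 0.28, adjusted p = 2.23e-04). It was the 1 gene called of the 51 in each of these comparisons, where 0.186% and 0.141% of all genes were called. Irf7, called in untreated mice, had a change of 1.55 among isochronic mice (adjusted p = 0.206) and 0.57 among heterochronic mice (adjusted p = 0.724), with old heterochronic libraries at 28.1 and 91.1. Adaptors and kinases were above 0 in 8 of 14 and 5 of 14 tests, against 50.6% and 50% of all genes. The list of interferon receptor signalling genes, which holds Usp18, was above 0 in 6 of 8 tests among isochronic and 7 of 8 among heterochronic mice.

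The second question is where in the body the sensors were expressed. Tissues were ordered by the median over libraries other than those of young mouse 2. Spleen was highest for Ifih1, Tlr7, Tlr9 and Aim2, liver for Mavs and Trim25, inguinal lymph nodes for Ddx58, bone marrow for Dhx58, cervical lymph nodes for Zbp1 and choroid plexus for Tlr3. Hippocampus was lowest for Ddx58, Ifih1, Dhx58, Tlr9, Mavs and Trim25, and tied with choroid plexus at a median of 0 for Zbp1. Neighbours in these orders mostly did not differ beyond their spread: depending on the gene, 8 to 10 of the 10 neighbouring pairs of tissues overlapped.

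**Figure D3:**
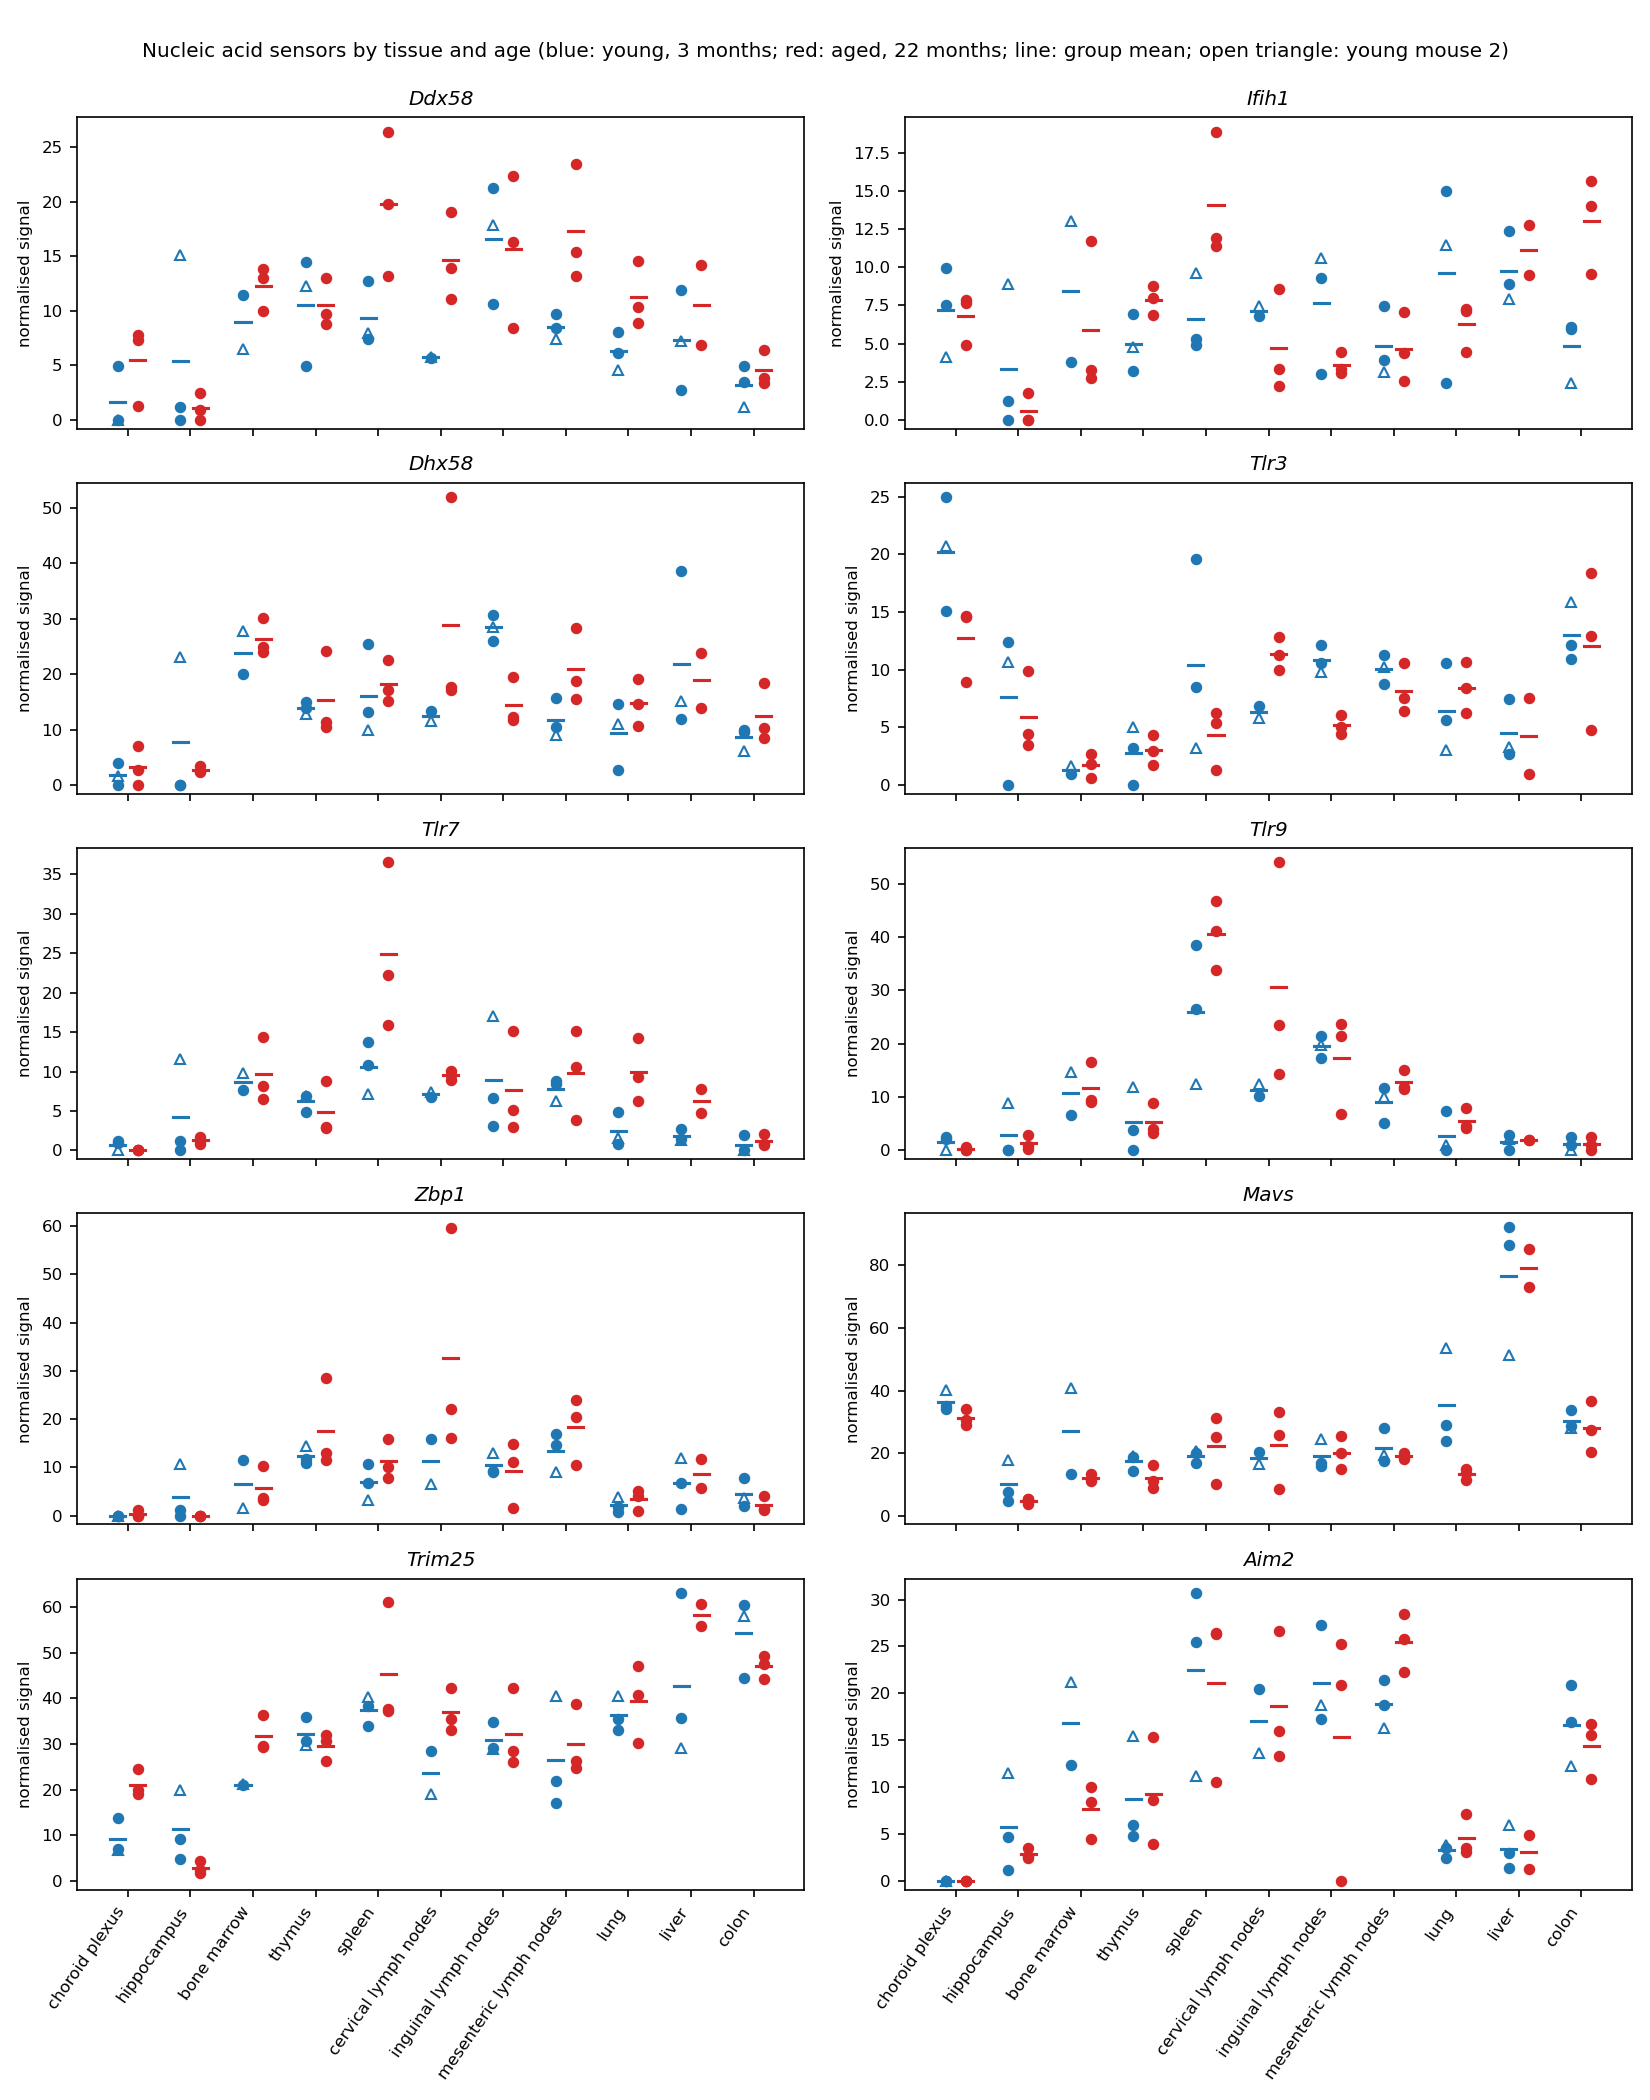
Normalised signal (y axis, linear) of each sensor in 11 tissues (x axis), with blue for young and red for aged libraries, a line at each group mean and open triangles for young mouse 2. Without young mouse 2, Mavs in every liver library stands above every library of the other tissues, Tlr9 is high in spleen and lymph nodes, and the open triangle of hippocampus is above the other hippocampus libraries for 9 of 10 genes.

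The steepest separation was that of Mavs. In liver it ran from 72.9 to 92.1 without young mouse 2, above every library of the other 10 tissues, and choroid plexus followed with a median of 33.9. Its lowest median was 5.25, in hippocampus. Tlr9 in spleen ran from 26.6 to 46.7 with a median of 38.6, above all libraries of 9 tissues. Cervical lymph nodes, at 10.2 to 54.0, were the exception. Zbp1 in cervical lymph nodes had a median of 19.1 and lay wholly above 8 tissues.

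Tlr3 had the least shared pattern. Its median was 14.7 in choroid plexus and 12.2 in colon, and fell off to 1.39 in bone marrow, where Dhx58 was at its highest with a median of 24.4. The choroid plexus ranked 2 of 11 for Mavs and 4 of 11 for Ifih1, but 11 of 11 for Tlr7 and Aim2 and 10 of 11 for Dhx58, Tlr9 and Trim25. Its B cell markers summed to between 2.44 and 8.97 in the 6 libraries, against 835.8 to 2083 in young spleen. Trim25 was highest in liver with a median of 58.3, and only 2 tissues lay wholly below.

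Across the 52 libraries the sensors' levels ran together to differing degrees. As a description, over libraries that share mice and depth, Pearson's r of log2 levels was 0.78 between Tlr7 and Tlr9, 0.75 between Dhx58 and Zbp1 and 0.70 between Ddx58 and Dhx58. Tlr3 ran against Tlr7 with r = -0.24. Of 16385 genes compared, the nearest to Dhx58 was Irf7 (r = 0.86), to Tlr9 Bank1, a B cell scaffold protein (r = 0.90), to Aim2 Blnk, a B cell adaptor (r = 0.88), and to Zbp1 Psmb8, a subunit of the immunoproteasome (r = 0.89). Tlr7 was nearest to Cd300a, a receptor of myeloid cells (r = 0.87), and Trim25 to Ripk1, a kinase of cell death signalling (r = 0.86). For Ddx58 the nearest was Nfatc1 and the second nearest Irf9 (r = 0.83 for both). Ifih1 was nearest to Cd164 (r = 0.71) and Mavs to Prdx1 (r = 0.85). Tlr3 had no close neighbour, its highest r being 0.68 with Plpp1.

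The third question is how age changed the sensors outside the choroid plexus. In the 11 tissues there were 110 pairs of gene and tissue, of which 100 were tested: 61 had a change above 0 and 39 below, where 51.8% of all tests were above 0. With limma 0 were called, against 0.15% of all tests, and 10 were higher and 5 lower at an unadjusted p under 0.05, against 4.69% and 2.94%; voom gave 0, 8 and 5. Without young mouse 2, 57 of 96 were above 0. The share over all genes without this mouse is not given here, so that count has no background beside it. Cervical lymph nodes and bone marrow were then left with 1 young library each. Ddx58 had a change above 0 in 9 of 11 tissues with a median of 0.57, and in 9 of 10 with a median of 0.61 without that mouse. Dhx58 was above 0 in 9 of 11 as well, and in 6 of 10 without it. Mavs leaned the other way, above 0 in 4 of 11 and 2 of 11. The tissues came from the same mice, so counts over tissues are not counts of independent results.

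**Figure D4:**
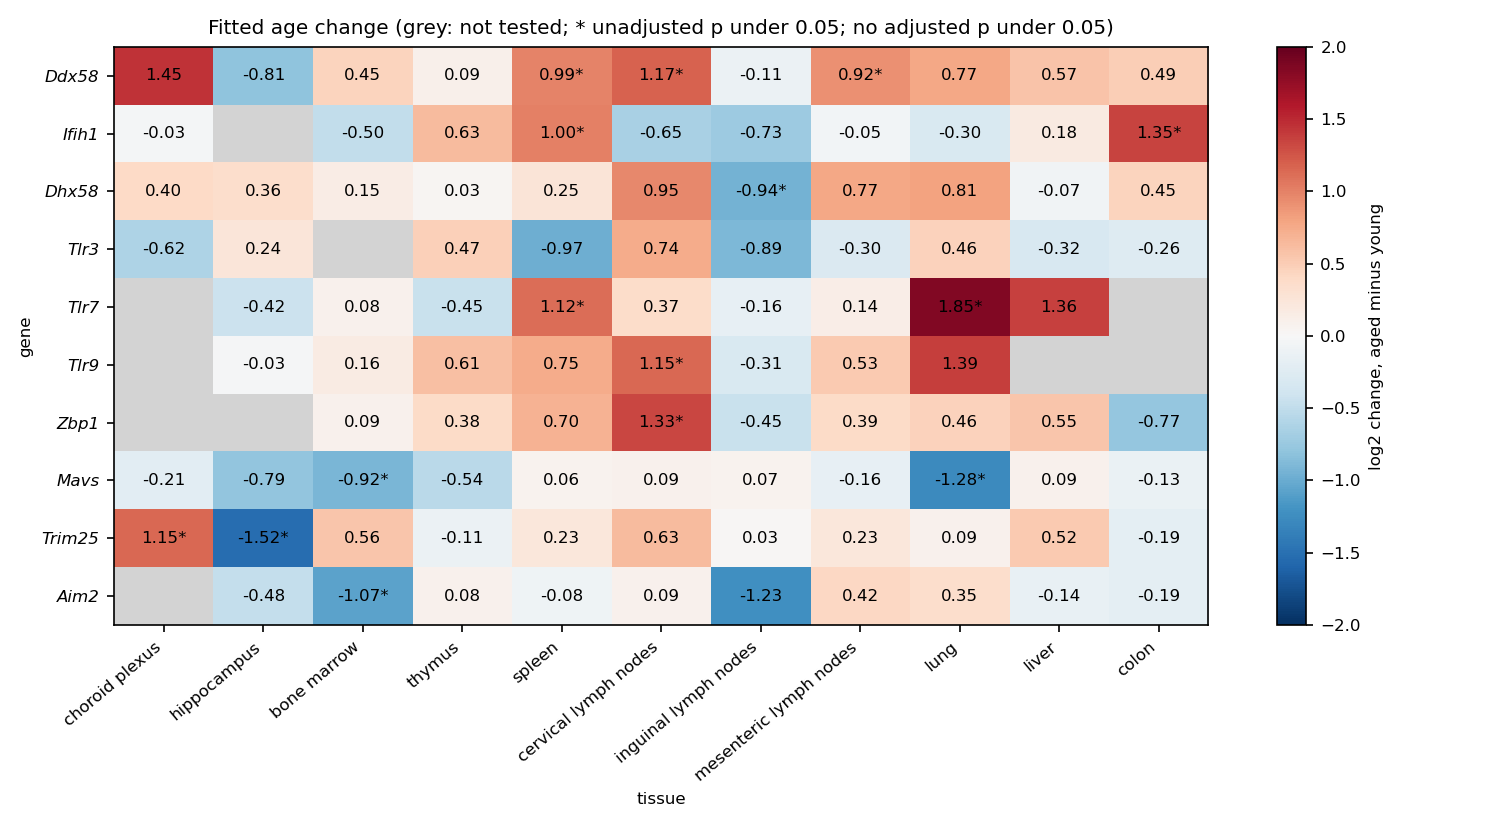
Fitted log2 change, aged minus young (colour scale and printed value), for each sensor (y axis) and tissue (x axis); grey cells were not tested and asterisks mark an unadjusted p under 0.05. Ddx58 and Dhx58 are above 0 in 9 of 11 tissues each, and no cell passed the test over all genes.

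Cervical lymph nodes had the most separated sensors. There 7 of 10 were higher in every aged than in every young library, where 12.7% of all genes were, 9 of 10 had a change above 0 (49.2% of all genes), and 0 were called, against 0.0323% of all genes. Ddx58 was 11.1, 13.9 and 19.1 in aged mice 1, 2 and 3 and 5.81 and 5.69 in young mice 2 and 3 (log2 1.17, SE 0.45, adjusted p = 0.552, limma). Tlr9 was 14.4, 23.5 and 54.0 against 12.4 and 10.2 (1.15, SE 0.48, adjusted p = 0.634), and Zbp1 22.2, 16.04 and 59.6 against 6.64 and 15.9 (1.33, SE 0.56, adjusted p = 0.657). Aged mouse 3 was the highest of the 5 for each of these genes, and without it the change of Tlr9 was 0.66. Without young mouse 2, which leaves 1 young library assumed to vary like the others, the changes were 1.19, 1.28 and 0.76.

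Markers of immune cells and of other organs differed between the same libraries. Plasma cell markers summed to 679.5 to 1249 in aged and 158.0 to 265.2 in young cervical lymph nodes, macrophage markers to 1728 to 2603 against 764.5 to 1465, and T cell markers to 287.0 to 364.5 against 470.7 to 694.3. Choroid plexus epithelium markers summed to 280.6 to 3323 in aged against 251.5 to 252.2 in young nodes. Hepatocyte markers summed to 219.6 to 3125 against 208.3 to 282.2, but only 1 of 4 tested markers was above 0. Both of these lists hold Ttr, so the 2 sums are not separate results, and higher liver markers were not shown. The young library with neuron markers at 1220, against 19.4 to 30.4 in the rest, is that of young mouse 2. The part of these cells in the sensors' difference was not tested.

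In spleen 3 of 10 sensors were higher in every aged library, where 8.22% of all genes were, and 0 were called, against 0.146% of all genes. Ddx58 was 13.2, 26.4 and 19.8 in aged and 7.41, 8.0 and 12.8 in young mice (log2 0.99, SE 0.39, adjusted p = 0.483, limma). Ifih1 was 11.9, 18.9 and 11.4 against 5.29, 9.60 and 4.91 (1.00, SE 0.43, adjusted p = 0.515), and Tlr7 15.9, 36.5 and 22.2 against 13.8, 7.20 and 10.8 (1.12, SE 0.40, adjusted p = 0.462). Aged mouse 2 was the highest for all 3 genes. Without young mouse 2 the changes were 0.90, 1.26 and 0.89, and Tlr3 was at -1.54 (unadjusted p = 0.016, adjusted p = 0.394) instead of -0.97. Plasma cell markers summed to 701.2 to 1202 in aged against 350.4 to 427.7 in young spleen, and 4 of 6 neutrophil markers were called. Macrophage markers, at 2155 to 2288 against 926.2 to 2056, and conventional dendritic cell markers, at 111.7 to 151.0 against 53.4 to 102.3, stood apart and higher too. The part of these cells was not tested.

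Lung held the largest single change among the tissues, that of Tlr7: 14.2, 9.36 and 6.21 in aged and 0.88, 1.53 and 4.85 in young mice (log2 1.85, SE 0.56, adjusted p = 0.379, limma). Mavs was lower there, at 14.9, 13.5 and 11.5 in aged and 23.8, 53.6 and 29.1 in young mice (-1.28, SE 0.34, adjusted p = 0.368). The highest Mavs value belongs to young mouse 2, whose lung held hepatocyte markers as given above; their part in it was not tested. Without that mouse the aged libraries still lay below the young ones, with a change of -0.94 (unadjusted p = 0.00914, adjusted p = 0.247), and that of Tlr7 was 1.70. Of 10 sensors 2 were apart and higher and 1 apart and lower, where 10.3% and 6.23% of all genes were, and 0.00743% of all genes were called. Macrophage markers summed to 450.3 to 755.8 in aged and 378.5 to 393.6 in young lung, with 10 of 10 above 0. Markers of plasmacytoid dendritic cells (49.9 to 58.6 against 20.7 to 41.0), T cells (53.8 to 71.9 against 29.2 to 47.7), neutrophils (398.7 to 520.9 against 276.7 to 366.8) and plasma cells (232.1 to 295.3 against 156.2 to 206.2) also stood apart and higher in aged lung. The part of all these cells was not tested.

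A further 2 changes were tied to young mouse 2. In bone marrow Mavs was 11.8, 11.1 and 13.3 in aged mice and 40.8 and 13.4 in young mice 2 and 3, and its change went from -0.92 (adjusted p = 0.738, limma) to -0.14 without that mouse. In hippocampus Trim25 was 1.75, 2.47 and 4.43 in aged and 9.29, 19.97 and 4.85 in young mice, and its change went from -1.52 (adjusted p = 0.886) to -1.02 (unadjusted p = 0.111).

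Elsewhere, colon Ifih1 was 14.0, 9.59 and 15.6 in aged and 5.98, 2.45 and 6.08 in young mice, with no overlap (log2 1.35, SE 0.42, adjusted p = 0.246, limma; 1.00 without young mouse 2). T cell markers were lower in the same aged colons, at 6.07 to 11.1 against 13.3 to 18.0. In inguinal lymph nodes Dhx58 was 19.5, 12.3 and 11.8 against 26.1, 28.6 and 30.7, also apart (-0.94, adjusted p = 0.843; -0.93 and unadjusted p = 0.0574 without young mouse 2). T cell markers summed to 42.1 to 371.8 in these aged nodes against 523.3 to 658.1 in young ones, and plasmacytoid dendritic cell markers to 14.0 to 68.8 against 74.9 to 313.9. Mesenteric lymph node Ddx58 was 13.2, 15.4 and 23.5 against 8.43, 7.38 and 9.75 (0.92, adjusted p = 0.554; 0.83 and unadjusted p = 0.0635 without young mouse 2). Plasma cell markers there summed to 783.1 to 2705 against 271.1 to 384.6, and conventional dendritic cell markers to 88.7 to 111.1 against 32.8 to 76.5. Bone marrow Aim2 was 9.99, 8.45 and 4.45 against 21.2 and 12.4 (-1.07, adjusted p = 0.731), and without young mouse 2 the change was -0.71 (unadjusted p = 0.201). B cell markers summed to 175.7 to 263.3 in the same aged marrow against 365.2 to 454.4 in young, with 0 of 7 above 0, and plasma cell and neutrophil markers stood higher. The part of these cells in the sensors' changes was not tested. None passed the test over all genes. In thymus and liver no sensor reached an unadjusted p under 0.05.

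The age change in choroid plexus was set against the mean change of the other 10 tissues in 1 model that held every tissue and a term for each mouse. Trim25 differed by 1.12 (SE 0.34, unadjusted p = 0.00173, adjusted p = 0.297, limma). Differences larger in size but with a larger p were those of Tlr9, at -1.39 (adjusted p = 0.901), Tlr7, at -1.18 (adjusted p = 0.901), and Ddx58, at 1.14 (adjusted p = 0.941). Tlr7, Tlr9, Zbp1 and Aim2 entered this model only through their level in other tissues. In choroid plexus they were at or near 0 at both ages, so their differences allow no direction to be read there. Of the 10 sensors 0 were called, against 0.147% of 16312 genes, 1 was under 0.05 unadjusted (5.89% of all genes), and voom gave 0 and 1. An age change particular to the choroid plexus was therefore not shown for any of them.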

How the data were processed

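RNA-seq of 63 tissue and 11 parabiont libraries was read from 2 deposited tables. The submitters' processing notes name TopHat and the mouse build mm9; no source used here gives the counting tool, its scaling or a version. The deposited values are a signal: by their steps, weighted reads per RefSeq transcript divided by 1 factor per library. Within a tolerance of 0.001, 78.0% to 86.8% of values above 0 were whole multiples of a read's worth, so counts were not recovered and limma 3.58.1 in R 4.3.3 was used on log2 values. Bone marrow of young mouse 1 was not analysed here, and 1 column matched no listed sample and was not used.

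The pseudocount was the value worth 1 read (median over the fit's libraries), so fold changes of low genes are understated. A gene was tested where its mean over all libraries of the fit was at least 2 reads. In the model that held every tissue, a mean over both ages of 2 reads in at least 1 tissue was enough. Empirical Bayes used a trend and robust settings, with Benjamini-Hochberg adjustment over all genes tested and a threshold of 0.05, two-sided. Each tissue was fitted alone and the 4 parabiosis groups together. Sensors are named always, with fitted values in other tissues at an unadjusted p under 0.05; pathway lists name up to 4 genes with the smallest p. The sensors and lists were chosen with earlier results of these data known, and 1 listed gene is not reported here. Alternatives changed the pseudocount, filter, normalization, trend, weights (voom), transcript choice, replicate block, the groups fitted and each library. The fit was tested on simulated data, where the changed genes had far more reads than the filter asks. For choroid plexus, 22% of changes of 1 log2 unit and 98% of changes of 2 log2 units were called. For old against young heterochronic parabionts 27% and 93% were called. Changes near 1 log2 unit were thus mostly missed. Unchanged genes called numbered 2 for choroid plexus and 19 for heterochronic parabionts. Each size of change was given to 100 genes, so the 19 false calls exceed what the threshold of 0.05 is meant to allow. Trim25 was called in that comparison.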

Additional observations from a re-analysis of the deposited data

Results flagged for a closer look

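For 4 sensors the libraries of all aged mice lay above those of all young mice in 1 or more tissues and below them in others. These differences between tissues were not tested. The 4 are 40% of the sensors; such opposite moves were found in 21.8% of the 11105 genes tested in at least 8 tissues. Dhx58 was higher in aged cervical lymph nodes and lower in aged inguinal lymph nodes, which is 1 pair of tissues with opposite moves. Tlr3 was higher in cervical lymph nodes and lower in choroid plexus and inguinal lymph nodes, giving 2 such pairs. Trim25 was higher in bone marrow, cervical lymph nodes and choroid plexus and lower in hippocampus, giving 3 pairs. Aim2 was higher in mesenteric lymph nodes and lower in bone marrow, giving 1 pair. The inguinal lymph nodes of aged mouse 3, rich in fat cell markers, and the hippocampus of young mouse 2, rich in B cell markers, are among these libraries.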

How the results depend on the processing

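No sensor was called in 14 of the 16 comparisons under any alternative run. Among isochronic parabionts, a fit of only the 2 groups compared called 1 sensor, Ifih1 (adjusted p = 0.0389), where the fit of 4 groups called 0. Among heterochronic parabionts the call of Trim25 was lost (0 called) with a pseudocount of the smallest value above 0, no filter, limma without a trend, voom or only the 2 groups; leaving out libraries gave 0 to 1 called. The cause was not tested. Of 28 fitted sensor changes followed, 26 kept their direction under every alternative. Those of choroid plexus, aged against young, were followed whatever their p, and the others for an unadjusted p under 0.05 in the main fit (limma). Changes picked in this way tend to keep their direction, so the count is no independent check. Both changes that did reverse were in choroid plexus. In choroid plexus Ifih1, main value -0.03, was 0.000272 with quantile normalization and ranged from -0.33 to 0.20 when single libraries were left out, above 0 without aged mouse 2 (0.15), young mouse 1 (0.20) or young mouse 3 (0.03), and Dhx58 ranged from -0.16, without young mouse 3, to 1.08.

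Counts over all genes moved more: choroid plexus went from 33 called to between 5 and 55, isochronic parabionts from 25 to between 2 and 45, heterochronic parabionts from 19 to between 1 and 55, spleen from 18 to between 6 and 59, thymus from 127 to between 0 and 267, cervical lymph nodes from 4 to between 1 and 510, liver from 2 to between 0 and 120, colon from 15 to between 0 and 43, mesenteric lymph nodes from 2 to between 0 and 14, lung from 1 to between 0 and 30 and the contrast between tissues from 24 to between 7 and 320. Comparisons with 0 called reached at most 77 in bone marrow, 9 in hippocampus, 23 in inguinal lymph nodes, 5 between young and 73 between old parabionts. Same-numbered aged and young libraries did not pair (correlations of -0.205 to 0.166), and with the replicate number as a block 0 sensors were called in each tissue; all genes called went from 2 to 120 in liver, 127 to 217 in thymus and 0 to 19 in bone marrow. No paired analysis of parabionts was possible, because the labels do not say which were partners. Any joined mice among them were therefore treated as independent. At 0 to 3 reads a library, a difference in Tlr7, Tlr9 or Zbp1 was not detectable in choroid plexus.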
